A study of Mus musculus with 18 samples.

Results

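Germ cells sorted from mouse gonads at the embryonic stage E13.5 were compared with cells made in culture from embryonic stem (ES) cells. The cultured cells, germ cells by their label, were sorted on day 16 of differentiation. The samples were chosen by their titles, which gave 2 E13.5 arrays and 2 Dazl day 16 arrays, 4 of the 18 arrays in the series. The series followed reporter ES cells through differentiation in culture and set them beside germ cells from embryos and juvenile testes, and this comparison sets the latest culture stage beside germ cells of the fetal gonad.

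The E13.5 cells were Dazl-GFP+ germ cells freed by enzymes from embryonic gonads. The Dazl day 16 cells, germ cells of the culture dish by their label, grew from Dazl-GFP ES cells that were rid of feeder cells, plated on gelatin and kept for 16 days in a differentiation medium. Both groups were sorted for green fluorescent protein (GFP), both came from a mixed C57BL/6 and 129SV background, and the labels call every sample male. Since the reporter of Dazl set the gate, the level of Dazl itself is no free readout. The number of embryos or cultures behind an array and the promoter fragment that drives the reporter are not given in the sources used here. The day 16 cells come from 1 reporter line as far as the labels say.

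By E13.5 mouse germ cells have settled in the gonad, have lost most of their DNA methylation and make the RNA helicases, tudor proteins and small-RNA factors of the germ granule. Female germ cells then enter meiosis under retinoic acid, through the gatekeeper gene Stra8. Male germ cells instead stop dividing, pass through a short phase of Nodal signalling and turn on the RNA-binding repressor Nanos2.

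RNA was labelled in 1 colour and measured on Agilent whole-genome arrays. A level here is a log2 background-subtracted signal after the same array's 75th percentile was taken off, and a difference is the mean level at E13.5 minus that at day 16, ± the standard error from limma. The 75th percentile was a signal of 343 and 359 on the E13.5 arrays, against 156 and 164 on the day 16 arrays, and 64.0% and 61.9% of spots were well above background at E13.5, against 58.6% and 61.0% at day 16. With 2 arrays a group, their number limits the precision. Whether replicates were separate animals or cultures is not stated, so the p-values measure only a spread between arrays, which may be technical. That spread was estimated for each gene over the pairs of all 9 groups. It may be smaller than the gap within the E13.5 pair, which differed more than the day 16 pair. All E13.5 arrays lay on a slide and scan day that held no day 16 array, so slide, scan day and group cannot be told apart.

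The 2 E13.5 arrays differ, and most Y-linked genes on the first go against its label. On the library labelled E13.5 replicate 1, which is called male, 5 of 7 Y-linked genes tested were not well above background. One of these, Usp9y, was above background on neither E13.5 array. Zfy1 and Zfy2 were well above background on both, with -3.34 and -2.31 for Zfy1 at E13.5, against -0.80 and -0.76 at day 16, and -4.79 and -2.31 for Zfy2 at E13.5, against 0.07 and 0.04 at day 16. The other genes, Ddx3y, Eif2s3y, Kdm5d and Uba1y, parted the E13.5 arrays. Their levels on array 1 lay between -7.45 and -7.24, against -1.82 to 4.50 on the library labelled E13.5 replicate 2 and -2.28 to 3.34 on the day 16 arrays. Across all genes tested, the E13.5 arrays correlated with a Pearson's r of 0.943, against 0.992 for the day 16 arrays. They lay apart by a log2 of 1 or more at 25.9% of genes (14.8% higher on array 1, 11.1% higher on array 2), against 6.02% for the day 16 pair and 18.2% for the juvenile testis pair, the other group taken from animals. A gap of 2 or more was seen at 8.24% of genes between the E13.5 arrays, against 0.668% between the day 16 arrays. At 54.3% of the 1555 genes with such a gap at E13.5, both day 16 arrays lay between the 2 E13.5 arrays. Results below are therefore given for the E13.5 pair, mostly with the level of a gene on each E13.5 array. Calls with each E13.5 array alone are added for some of the genes and lists that part them.

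Of 18876 genes, 7907 (41.9%) passed an adjusted p under 0.05 in limma, 4360 higher (23.1%) and 3547 lower (18.8%) at E13.5. With E13.5 array 1 alone, 8379 passed (44.4%, with 24.0% higher and 20.4% lower), and with E13.5 array 2 alone 8027 passed (42.5%, with 23.2% higher and 19.3% lower). In these single-array fits the lone sample is assumed to vary like the other groups. There were 5244 genes called in the same direction by each E13.5 array alone, 2851 of them higher and 2393 lower, and 257 called in opposite directions. In 69.6% of genes the 2 groups did not overlap. The median difference over all genes was 0.15, and 55.1% of the calls were higher at E13.5. With another background correction, normexp with an offset of 50 signal units, the median over all genes was -0.57. Then 34.0% of 13765 calls were higher, so the direction of part of the genes depends on that choice. Normexp called 4684 higher and 9081 lower of all 18876 genes, the counts to set beside those it gave in each list. In bulk RNA, fewer cells of a type and less RNA per cell cannot be told apart.

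Germ cell identity was checked with Ddx4, the germline RNA helicase also called mouse vasa homolog, and Tdrd1, a tudor protein that binds PIWI proteins. Ddx4 had levels of 5.59 and 4.97 on the E13.5 arrays, against 1.73 and 1.68 on the day 16 arrays, and was higher by 3.57 ± 0.23 (adjusted p = 1.05e-06). Tdrd1 had levels of 3.23 and 2.55 at E13.5, against -2.85 and -2.97 at day 16. That difference of 5.80 ± 0.27 (adjusted p = 1.58e-07) was the largest rise among the named genes measured on all 4 arrays, and both markers were well above background in both groups. Of 27 gonadal germ cell genes tested, 14 rose and 1 fell, with a median difference of 0.81 against 0.15 over all genes. Array 1 alone called 16 higher and 1 lower, and array 2 alone 11 higher and 3 lower.

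Several defining germ cell genes had nearly the same level in both groups. Kit, the receptor for stem cell factor, had 2.40 and 1.99 at E13.5, against 2.26 and 2.24 at day 16. Dmrt1, a transcription factor of the gonad and germline, had 0.66 and 0.72 at E13.5, against 0.72 and 0.68 at day 16. The germline transcription factor gene Sohlh2 had 4.05 and 3.67 at E13.5, against 3.79 and 3.77 at day 16. The groups overlapped for all 3 genes, with differences of -0.06 ± 0.22, -0.01 ± 0.21 and 0.08 ± 0.30 that did not pass the test (adjusted p = 0.86, 0.977 and 0.854 in limma). Dazl, the gated gene, had 5.43 and 5.27 at E13.5, against 4.88 and 4.82 at day 16, a difference of 0.50 ± 0.16. It passed the test with both arrays (adjusted p = 0.0291) and with array 1 alone (0.0225), but not with array 2 alone (0.0815) or without either day 16 array (0.098 and 0.135). With quantile normalization the Dazl difference was 0.07 (adjusted p = 0.814), and with the mean over its probes it was -0.14.

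**Figure D1:**
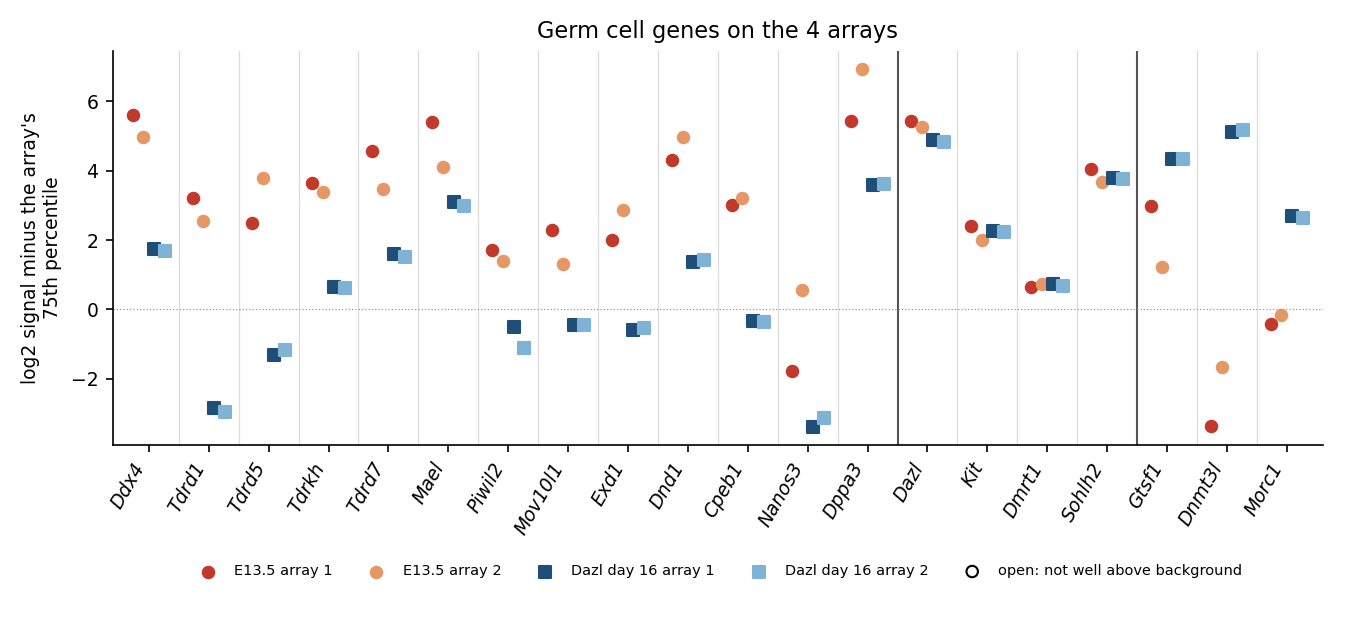
Levels of 20 germ cell genes on each of the 4 arrays, as log2 signal minus the array's 75th percentile, with the E13.5 arrays as circles left of the Dazl day 16 arrays as squares. From Ddx4 to Dppa3 both E13.5 arrays lie above both day 16 arrays, from Dazl to Sohlh2 the groups lie within a log2 of 1, and Gtsf1, Dnmt3l and Morc1 lie lower at E13.5.

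Among genes of the germ granule, the cytoplasmic body that processes small RNAs, 10 of 16 tested rose and 1 fell (median 1.70). Tdrd5, a tudor protein needed to silence retrotransposons, had 2.49 and 3.78 at E13.5, against -1.31 and -1.18 at day 16, and was higher by 4.38 ± 0.40. Tdrkh, a mitochondrial tudor protein of piRNA trimming, had 3.66 and 3.39 at E13.5, against 0.64 and 0.61 at day 16. The granule scaffold gene Tdrd7 had 4.56 and 3.46 at E13.5, against 1.58 and 1.51 at day 16. In each of these 3 the groups stood apart by more than the gap between replicates, and each E13.5 array alone called the gene higher. Gtsf1, a cofactor of PIWI slicing, went the other way: it had 2.98 and 1.22 at E13.5, against 4.34 and 4.35 at day 16, and fell by 2.24 ± 0.49 (adjusted p = 0.00371). Tdrd12, also a tudor gene, had 3.03 and 3.54 at E13.5, against 3.31 and 3.26 at day 16.

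In the piRNA pathway, which makes the small RNAs that guide PIWI proteins to transposons, 11 of 24 genes rose and 2 fell (median 1.34). This list overlaps the germ granule list. Among its rises, Tdrd1, Ddx4, Tdrd5, Tdrkh and Mael were counted there too, as was the fall of Gtsf1. Piwil2, the PIWI protein of fetal germ cells also called MILI, had 1.71 and 1.4 at E13.5, against -0.52 and -1.11 at day 16, and was higher by 2.37 ± 0.48. The helicase gene Mov10l1, which loads piRNA precursors, had 2.30 and 1.32 at E13.5, against -0.44 on both day 16 arrays. Exd1, a partner of Tdrd12, had 2.01 and 2.88 at E13.5, against -0.58 and -0.54 at day 16. Mael, which acts in piRNA biogenesis and transposon repression, had 5.42 and 4.10 at E13.5, against 3.09 and 2.98 at day 16. All 4 passed the test with both arrays and with each E13.5 array alone. Piwil4, the nuclear PIWI protein that directs DNA methylation in male germ cells, had 0.36 and -0.18 at E13.5, against -1.58 and -1.57 at day 16, and its difference of 1.67 ± 0.74 did not pass (adjusted p = 0.0912).

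The upstream bases of 3 granule genes that rose on both arrays, Tdrd1, Ddx4 and Mael, and of Stra8, the meiotic gene with the largest gap between the E13.5 arrays among those taken by rank, are shown. The first 3 were chosen, among the 10 granule genes that rose, for holding the motif described with them. They are the 250 bases before the gene start in RefSeq, build GRCm38.p6, 5′ to 3′ on the gene's strand, for 4 genes matched by symbol. Tdrd1 (chr19:56825959-56826208, plus strand, the most upstream of 3 starts) and Ddx4 (chr13:112652311-112652560, minus strand) are followed by Mael (chr1:166238745-166238994, minus strand) and Stra8 (chr6:34920698-34920947, plus strand).
Tdrd1: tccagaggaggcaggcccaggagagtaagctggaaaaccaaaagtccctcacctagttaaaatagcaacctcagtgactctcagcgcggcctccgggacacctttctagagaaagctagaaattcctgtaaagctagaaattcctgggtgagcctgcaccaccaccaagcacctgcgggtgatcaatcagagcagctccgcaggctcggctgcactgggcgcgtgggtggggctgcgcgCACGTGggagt
Ddx4: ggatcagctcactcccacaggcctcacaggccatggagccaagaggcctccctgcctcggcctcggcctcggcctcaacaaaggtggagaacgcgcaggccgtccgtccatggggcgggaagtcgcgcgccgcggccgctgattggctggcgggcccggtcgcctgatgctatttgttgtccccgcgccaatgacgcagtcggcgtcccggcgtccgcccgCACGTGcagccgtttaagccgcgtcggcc
Mael: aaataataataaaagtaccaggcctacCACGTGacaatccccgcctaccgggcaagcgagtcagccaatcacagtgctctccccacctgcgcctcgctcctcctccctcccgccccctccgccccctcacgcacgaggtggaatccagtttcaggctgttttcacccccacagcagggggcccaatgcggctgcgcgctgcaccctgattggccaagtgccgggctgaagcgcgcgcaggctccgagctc
Stra8: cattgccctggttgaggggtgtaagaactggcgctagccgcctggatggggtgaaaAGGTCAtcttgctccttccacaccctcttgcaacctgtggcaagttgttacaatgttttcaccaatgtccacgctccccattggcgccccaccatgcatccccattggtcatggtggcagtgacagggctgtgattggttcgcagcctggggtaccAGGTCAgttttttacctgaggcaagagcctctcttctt

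Capitals in the first 3 mark the E-box CACGTG, which reads the same on both strands. It occurred once in each, which is how they were chosen, and in 6.02% of 32851 promoters of that length in the table. Of the granule genes with a promoter there, 4 of the 10 that rose and 5 of the 14 tested hold it before their most upstream start. Capitals in Stra8 mark AGGTCA, a half-site of nuclear receptors such as those for retinoic acid. It was searched with its reverse complement TGACCT, was found at 2 places in Stra8, and occurred at least 2 times in 1.36% of those promoters and at least once in 14%. The 2 motifs share no bases. The windows of Tdrd1, Ddx4, Mael and Stra8 hold 11, 31, 18 and 5 CpG pairs, against a median of 6 over the table. A match is a description of the letters, not a bound site.

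RNA regulators of the germline rose at 10 and fell at 2 of 20 genes (median 1.06). Dnd1, which protects germ cell messages and is needed for their survival, had 4.32 and 4.97 at E13.5, against 1.37 and 1.42 at day 16, and was higher by 3.25 ± 0.40 (adjusted p = 9.3e-05). Cpeb1, which controls poly(A) tails, had 3.01 and 3.21 at E13.5, against -0.33 and -0.36 at day 16. The survival factor Nanos3 had -1.77 and 0.55 at E13.5, against -3.39 and -3.13 at day 16, and rose by 2.65 ± 0.70, although array 1 alone did not pass (adjusted p = 0.0873) and nor did the fit without day 16 array 1 (0.0591). The neighbouring family member Nanos2 parted the arrays: it was well above background on E13.5 array 2 alone, with 0.38, against -5.62 on array 1 and -6.73 and -6.78 at day 16. Its mean was at least 4.86-fold higher at E13.5 (adjusted p = 0.0309), a call that array 1 alone did not give (0.227), that was lost without either day 16 array (0.104 each) and that normexp turned to -0.47.

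Of 25 genes of early primordial germ cells, 9 rose and 4 fell (median 0.54). This list parted the arrays, with a median of 0.25 with array 1 alone and 1.21 with array 2 alone. Array 2 was the higher at 14 of the 15 genes that lay apart by a log2 of 1 or more. Dppa3, which encodes the protein Stella, had 5.44 and 6.94 at E13.5, against 3.58 and 3.61 at day 16, a difference of 2.59 ± 0.35. Prdm1, the repressor that specifies germ cells, had 0.13 and 1.55 at E13.5, against -1.55 and -1.42 at day 16, and Itgb3, a surface integrin, had 2.61 and 2.72 at E13.5, against 0.56 and 0.55 at day 16. All 3 were higher with both E13.5 arrays and with each alone. Ifitm3, a surface protein also called Fragilis, fell by 1.47 ± 0.30, with 2.64 and 3.76 at E13.5, against 4.63 and 4.72 at day 16.

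Meiotic genes parted the 2 E13.5 arrays. Each of the meiotic lists below held 14 genes with a gap of a log2 of 1 or more. Both day 16 arrays lay between the E13.5 arrays at 8 of them for meiotic entry, 6 for the chromosome axis and 8 for recombination. This was not particular to meiotic genes: other lists ran from 0 of 6 for the germ granule to 10 of 14 for imprinted genes. Over all genes the share was 54.3%, counted only at a gap of 2 or more. Stra8 had 8.88 on array 1 and 1.54 on array 2, against 8.56 and 8.47 at day 16. With both arrays the difference of -3.31 ± 1.73 did not pass (adjusted p = 0.149). Array 2 alone lay below day 16 by 6.98 on the log2 scale (adjusted p = 0.000437), whereas array 1 alone did not pass (0.808). Rec8, the meiotic cohesin, had 7.45 and 3.14 on E13.5 arrays 1 and 2, against 5.39 and 5.43 at day 16. It was called higher with array 1 alone (2.04) and lower with array 2 alone (-2.27), and its mean difference of -0.12 ± 0.97 did not pass. Meioc, which holds cells in the meiotic program, had 3.03 and -1.50 at E13.5, against 1.55 and 1.62 at day 16.

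Of 18 genes of the meiotic chromosome axis and synaptonemal complex, 6 rose and none fell with both arrays in limma (median 0.86), and 0 were lower at an unadjusted p under 0.05. Array 1 alone called 11 higher and none lower, and array 2 alone 4 higher and 2 lower. The E13.5 arrays lay apart by a log2 of 1 or more at 14 of the 18, with array 1 the higher in all 14. Sycp3, a lateral element protein, had 1.13 and -1.78 at E13.5, against -0.69 and -0.90 at day 16, and its mean difference of 0.47 ± 0.80 did not pass. Syce1, a central element protein, had 5.54 and 3.95 at E13.5, against 2.90 and 2.94 at day 16, and was higher with either array. Tex12, its partner in the central element, had 3.90 and 1.51 at E13.5, against -0.76 and -0.73 at day 16. Stag3, the meiotic cohesin subunit, had 4.85 and 3.87 at E13.5, against 2.81 and 2.82 at day 16. Smc1b, another cohesin subunit, had 7.26 and 5.37 at E13.5, against 4.99 and 5.0 at day 16, and passed with both arrays (adjusted p = 0.0479) but not with array 2 alone (0.431) or without either day 16 array (0.145 and 0.138), nor with quantile normalization (0.261).

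Of 22 recombination genes, 9 rose and 1 fell (median 0.86), against 13 and 1 with array 1 alone and 3 and 3 with array 2 alone. Spo11, the enzyme that makes the meiotic double-strand breaks, had -0.68 and -1.39 at E13.5, against -4.55 and -3.36 at day 16. It passed with both arrays (adjusted p = 0.0224), but not with array 2 alone (0.0991) or without day 16 array 1 (0.146), and normexp turned it to -0.11. Dmc1, the meiotic recombinase, had 2.54 and -0.92 at E13.5, against -0.13 on both day 16 arrays. Mei1, a gene needed for those breaks, had 3.20 and -3.40 at E13.5, against -1.79 and -1.84 at day 16, and was called higher with array 1 alone and lower with array 2 alone.

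The list of meiotic entry and retinoic acid genes held 6 that rose and 4 that fell of 21 (median -0.01), against 7 and 5 with array 1 alone, 2 and 8 with array 2 alone and 3 and 10 with normexp. Cyp26a1, which degrades retinoic acid, had -3.71 and -6.52 at E13.5, the second not well above background, against -0.76 and -0.74 at day 16. Aldh1a3, which makes retinoic acid, was not well above background on either E13.5 array and was at least 5.92-fold lower there than at day 16 (adjusted p = 0.00217). Its relative Aldh1a2 went the other way, with -0.48 and 1.72 at E13.5, against -1.46 and -1.38 at day 16, and rose by 2.04 ± 0.57. Rara, Crabp2 and Rxra were also among the rises of this list, with differences of 1.24, 2.44 and 1.15. Dhrs3, a retinaldehyde reductase induced by retinoic acid, had -1.70 and -1.75 at E13.5, against 0.39 and 0.30 at day 16. Msx1, a homeobox gene of female germ cells entering meiosis, had 3.57 and -1.25 at E13.5, against -2.55 and -1.87 at day 16, and passed with both arrays but not with array 2 alone (adjusted p = 0.247) or without either day 16 array (0.139 and 0.0744). Its relative Msx2 had 1.91 and -4.02 at E13.5, against -2.99 and -2.91 at day 16.

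**Figure D2:**
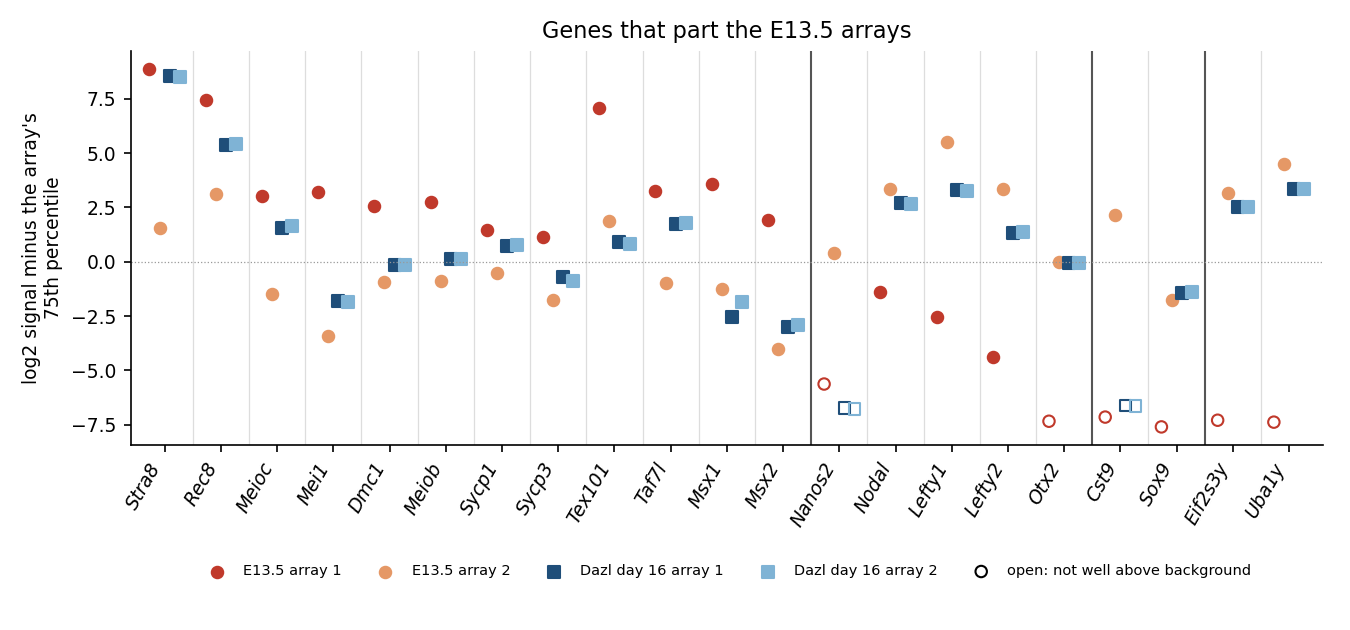
Levels of 21 genes on each of the 4 arrays, as log2 signal minus the array's 75th percentile, with E13.5 circles left of Dazl day 16 squares and open symbols where a gene was not well above background. Lines set off meiotic and array 1 genes, male fetal and Nodal genes, Sertoli genes and Y-linked genes, and the E13.5 arrays lie on opposite sides of the day 16 arrays for Rec8, Mei1, Sycp3, Lefty1 and Lefty2.

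Genes of male fetal germ cells parted the arrays in the other direction. Of 20 tested, 5 rose and 4 fell with both arrays (median 0.11), against 3 and 9 with array 1 alone and 9 and 4 with array 2 alone, and array 2 was the higher at 9 of the 10 that lay apart by a log2 of 1 or more. Lefty1, an inhibitor and target of Nodal, had -2.54 and 5.49 on E13.5 arrays 1 and 2, against 3.28 on both day 16 arrays. Lefty2 had -4.38 and 3.32 at E13.5, against 1.34 and 1.38 at day 16, and Nodal, the ligand, had -1.38 and 3.36 at E13.5, against 2.68 and 2.67 at day 16. For all 3 genes array 1 alone was called lower and array 2 alone higher than day 16, and none passed with both.

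The Nodal coreceptor gene Tdgf1 was lower at E13.5 with either array, with -3.91 and 0.13, against 2.20 and 2.30 at day 16, a fall of 4.14 ± 0.86. Otx2, a homeobox gene of the epiblast and anterior brain, was not well above background on E13.5 array 1 (-7.33) and had -0.02 on array 2, against -0.06 and -0.07 at day 16. Dnmt3l, the cofactor that male germ cells use later to methylate DNA, had -3.38 and -1.66 at E13.5, against 5.11 and 5.17 at day 16, and fell by 7.66 ± 0.39 (adjusted p = 2.39e-07). Morc1, a repressor of transposons in male germ cells, had -0.42 and -0.17 at E13.5, against 2.68 and 2.64 at day 16. Both falls held with each E13.5 array alone.

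Sertoli cells, the supporting cells of the fetal testis, share the gonad with germ cells. Of 23 Sertoli markers, 3 rose and 2 fell with both arrays (median 0.85), against 2 and 5 with array 1 alone, 9 and 1 with array 2 alone, and none and 14 with normexp. Array 2 was the higher at all 14 that lay apart by a log2 of 1 or more. Cst9, a cystatin of Sertoli cells, had 2.15 on E13.5 array 2 and was not well above background on array 1 (-7.14) or on the day 16 arrays (-6.60 and -6.63). Dhh, the hedgehog ligand of Sertoli cells, had -3.28 and 1.97 at E13.5, against -2.57 and -2.74 at day 16. Sox9, the transcription factor that sets the Sertoli fate, was not well above background on array 1 (-7.59) and had -1.77 on array 2, against -1.46 and -1.39 at day 16. The rises were not confined to array 2. Cst8 had -3.19 and -0.50 and Wt1 -3.87 and -1.76 on E13.5 arrays 1 and 2, all well above background. Neither was well above background at day 16. Cyp26b1 also rose (1.15), and the 2 falls were Nr0b1 and Clu, with differences of -3.65 and -2.93. The summed signal of the list, as a log2 level, was 2.06 and 4.30 on the E13.5 arrays, against 3.55 and 3.61 at day 16.  The part of somatic cells in the difference between the E13.5 arrays was not tested.

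**Figure D3:**
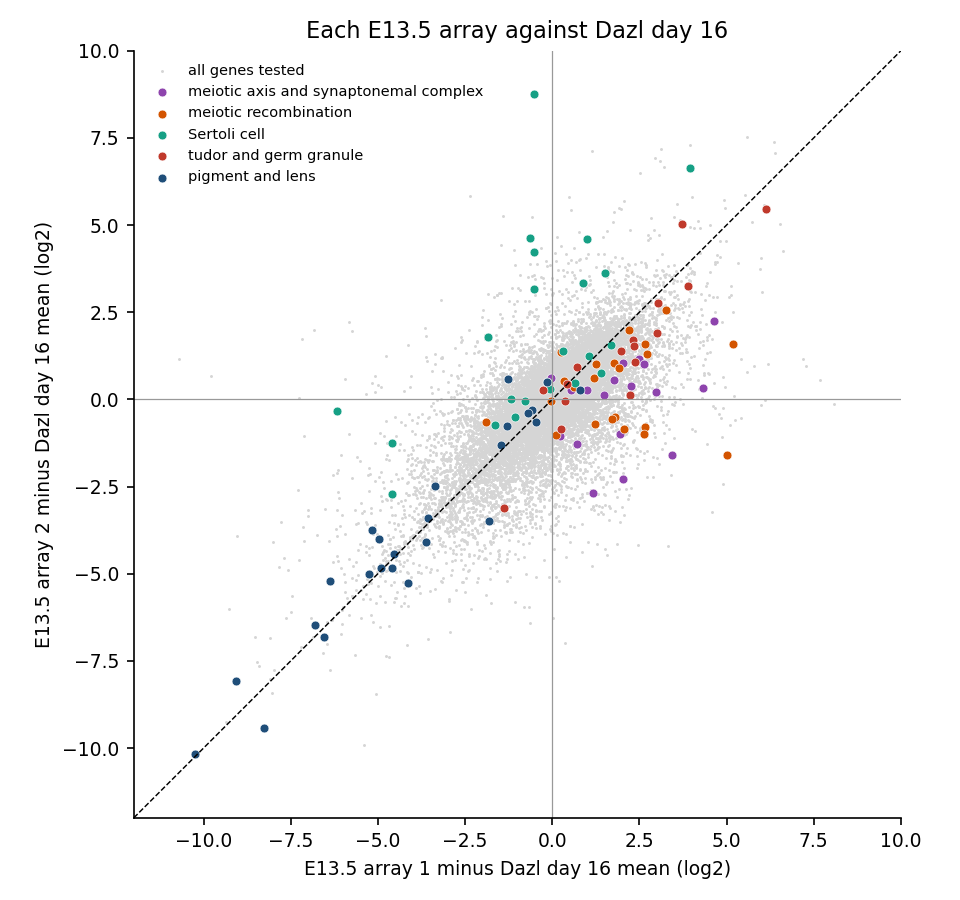
Difference of E13.5 array 1 (x axis) and E13.5 array 2 (y axis) from the mean of the 2 Dazl day 16 arrays, in log2, for all 18876 genes tested (grey) and 5 lists (colours), with the dashed line where both arrays are equal. Pigment and lens genes lie along the line at the lower left and germ granule genes at the upper right, whereas meiotic genes lie below the line (array 1 higher) and Sertoli genes above it (array 2 higher).

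Genes taken by the size of the gap between the E13.5 arrays were described whatever their list. On array 1, Cdx2, a caudal-type homeobox gene, had 3.1, against -5.13 on array 2. It was not well above background at day 16. Phlda2, an imprinted growth gene, had 5.77 on array 1 and -2.06 on array 2, against 1.14 and 1.20 at day 16. Sct, which encodes the hormone secretin, had 5.84 on array 1 and -1.67 on array 2, against 2.52 and 2.55 at day 16. In the other direction, Pmaip1, the proapoptotic gene Noxa, had -4.03 on array 1 and 4.89 on array 2, against 3.15 and 3.17 at day 16. The day 16 arrays lay between the E13.5 arrays for Phlda2, Sct and Pmaip1.

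Genes of the core and naive pluripotency network fell at 17 and rose at 1 of 29 (median -1.33). The median was -1.72 with array 1 alone and -0.48 with array 2 alone. Array 2 was the higher at 15 of the 18 genes that lay apart by a log2 of 1 or more. Nanog, a homeobox gene of naive cells and early germ cells, had -0.82 and 1.34 at E13.5, against 3.56 and 3.67 at day 16, and fell by 3.35 ± 0.49 (adjusted p = 0.000281). Klf4, a Krüppel-like factor, had 1.74 and 2.11 at E13.5, against 4.94 and 4.88 at day 16, and its relative Klf2 had 3.43 and 3.96 at E13.5, against 6.59 on both day 16 arrays. Sox2, the partner of Oct4, had 1.62 and 2.18 at E13.5, against 4.02 and 3.99 at day 16. All 4 were lower with each E13.5 array alone. Tbx3, a T-box factor, had -4.33 and -4.23 at E13.5, against 3.78 and 3.77 at day 16, and Socs3, a feedback inhibitor of cytokine signalling, had -1.43 and -2.69 at E13.5, against 3.69 and 3.71 at day 16. Spp1, the secreted protein osteopontin, had -1.05 and 0.21 at E13.5, against 7.02 and 7.06 at day 16.

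Other members of the network, among them genes that germ cells also use, showed no fall that passed the test. Pou5f1, which encodes Oct4, had 3.67 and 4.77 at E13.5, against 4.60 and 4.58 at day 16, and its difference of -0.37 ± 0.63 did not pass (adjusted p = 0.666). Sall4, a zinc-finger gene of ES and germ cells, had 2.89 and 3.45 at E13.5, against 2.62 and 2.64 at day 16 (adjusted p = 0.224 in limma). Lin28a, which blocks the maturation of let-7 microRNAs, was the member that rose, with 1.80 and 1.72 at E13.5, against 0.03 and -0.04 at day 16.

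DNA methylation genes held 5 that rose and 10 that fell of 23 (median -0.26). Beside Dnmt3l, the de novo methyltransferase Dnmt3b had -1.77 and -0.65 at E13.5, against 2.03 and 2.01 at day 16, and fell by 3.23 ± 0.34. Dnmt3a, its relative, had 1.54 and 1.79 at E13.5, against 1.80 and 1.72 at day 16, which did not pass (adjusted p = 0.819). The maintenance methyltransferase Dnmt1 rose by 1.07 ± 0.20, with 4.80 and 4.49 at E13.5, against 3.59 and 3.57 at day 16. Tet2, an enzyme that oxidises methylated cytosine, had -2.64 and -3.59 at E13.5, against -0.84 and -0.94 at day 16, and Zfp57, which protects imprints, fell by 4.27 ± 0.25. Each of these 4 calls, for Dnmt3b, Dnmt1, Tet2 and Zfp57, held with each E13.5 array alone.

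Of 29 genes of chromatin silencing, 10 rose and 6 fell (median 0.48). Ehmt2, the histone H3 lysine methyltransferase G9a, had 6.87 and 6.90 at E13.5, against 5.05 and 4.93 at day 16. Suv39h1, which methylates the same residue at heterochromatin, had 2.61 and 2.00 at E13.5, against 0.27 and 0.36 at day 16. The Polycomb subunits Suz12 and Eed went the other way: Suz12 had 1.37 and 1.99 at E13.5, against 3.51 and 3.58 at day 16, and Eed fell by 1.15 ± 0.19. Germline genes whose promoters are known to be silenced by methylation rose at 14 and fell at 3 of 30 (median 0.78), against 17 and 3 with array 1 alone and 10 and 5 with array 2 alone. Tex101, a surface glycoprotein of germ cells in that list, had 7.06 and 1.87 at E13.5, against 0.92 and 0.82 at day 16, and passed with both arrays but not with array 2 alone (adjusted p = 0.106) or without either day 16 array (0.0892 and 0.0937).

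Imprinted genes, which keep the mark of the parent they came from, rose at 2 and fell at 9 of 35 (median -0.24). Impact had 0.53 and 0.74 at E13.5, against 3.74 and 3.73 at day 16, and Sgce, a sarcoglycan, had -2.68 and -2.75 at E13.5, against 2.50 and 2.53 at day 16. Asb4, a ubiquitin ligase adaptor, rose by 5.70 ± 1.02, with 1.25 and 1.57 at E13.5, against -4.22 and -4.35 at day 16. Igf2, the fetal growth factor, had 2.69 and -0.40 at E13.5, against 3.64 and 3.67 at day 16, and H19, its reciprocally imprinted neighbour, had 1.85 and 1.07 at E13.5, against 2.42 and 2.47 at day 16. Igf2 fell (adjusted p = 0.0132), a call lost without either day 16 array (0.0574 and 0.0583), and H19 did not pass with both arrays (0.0589 in limma). H19 was lower with array 2 alone (-1.38, adjusted p = 0.0282 in limma) and with quantile normalization (-1.20, 0.0277).

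Genes of lens and pigment cells fell at 17 of 25 and rose at none in limma, 0 also at an unadjusted p under 0.05 (median -4.47), with 17 lower with array 1 alone and 16 with array 2 alone. Cryaa, the lens chaperone alpha A crystallin, had -4.35 and -4.26 at E13.5, against 5.91 and 5.89 at day 16, and its fall of 10.21 ± 0.42 (adjusted p = 5.82e-08) was the largest among named genes measured on all 4 arrays. The beta crystallin gene Cryba1 was not well above background at E13.5 and was at least 307-fold lower there than at day 16, where it had 2.92 and 2.91. Crybb1 and Cryge, also crystallins, were at least 81.8-fold and 85.3-fold lower. Dct, an enzyme of melanin synthesis, had -5.90, not well above background, and -4.91 at E13.5, against 3.18 and 3.17 at day 16. Pmel, the melanosome fibre protein, had -3.30 and -3.05 at E13.5, against 1.96 and 1.93 at day 16. The summed signal of the list was 0.78 and 1.58 as a log2 level on the E13.5 arrays, against 6.61 and 6.59 at day 16. The part of differentiated cells carried through the sort in the germ cell differences was not tested.

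Fibroblast and matrix genes fell at 17 of 27 and rose at none in limma, 1 at an unadjusted p under 0.05 (median -1.44), with a summed log2 level of 4.56 and 4.85 at E13.5, against 6.03 and 6.01 at day 16. Tagln, a smooth muscle actin-binding protein, had -1.07 and -1.75 at E13.5, against 1.94 and 1.98 at day 16, and Timp1, a protease inhibitor, had -0.77 and -0.47 at E13.5, against 2.37 and 2.39 at day 16. Other lineage lists held these falls and rises, beside 18.8% and 23.1% over all genes: 9 against 2 of 26 for endoderm, 8 against 2 of 24 for neural ectoderm, 6 against 1 of 17 for trophoblast, 4 against 1 of 16 for primed epiblast, 6 against 2 of 19 for endothelium and 8 against none of 19 for Hox genes (1 higher at an unadjusted p under 0.05 in limma). With array 1 alone, trophoblast genes fell at 7 and rose at 5, and neural genes fell at 10 and rose at 7, whereas with array 2 alone they fell at 10 and rose at 1, and fell at 11 and rose at 2. The primed epiblast share of falls lay near that of all genes. The neurofilament gene Nefl had -5.19 and -5.02 at E13.5, against 0.39 and 0.50 at day 16. Krt8, an epithelial keratin, had 0.32 and 0.65 at E13.5, against 3.81 and 3.76 at day 16. Mesoderm genes rose at 4 and fell at 2 of 22, but none rose and 17 fell with normexp.

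Markers of blood and of other gonadal cells were tested beside the germ cell genes. Macrophage genes rose at 8 and fell at 2 of 16 with a summed log2 level of 1.35 and 0.98 at E13.5, against 0.57 and 0.69 at day 16, but none rose and 15 fell with normexp. C1qc, a complement subunit of macrophages, had -2.45 and -3.51 at E13.5 and was not well above background at day 16 (-6.79 and -5.87). With normexp it was lower by 1.14 on the log2 scale. Erythroid genes rose at 4 and fell at 3 of 12, against 1 and 9 with normexp, and their summed log2 level was 2.05 and 2.45 at E13.5, against 2.27 and 2.38 at day 16. Ovarian somatic genes rose at 4 and fell at 1 of 11, against 3 and 6 with normexp. Leydig and interstitial genes fell at 2 and rose at none of 16 in limma, 2 at an unadjusted p under 0.05. The alpha globin gene Hba-a1 had 0.39 and 1.11 at E13.5, against -2.78 and -2.40 at day 16. The 3 erythroid genes that fell were Tfrc, Epor and Gata1, with differences of -1.13, -1.40 and -2.01. The 2 macrophage genes that fell were Cd68 and Laptm5, with differences of -2.05 and -2.29. The part of these cells in the comparison was not tested.

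Glycolysis genes fell at 14 and rose at 3 of 23 (median -1.70). Slc2a3, a glucose transporter, had 2.62 and 2.96 at E13.5, against 6.23 and 6.22 at day 16, and fell by 3.43 ± 0.19. Hexokinase Hk2 had 1.12 and 2.48 at E13.5, against 5.01 and 5.04 at day 16. The lactate dehydrogenase gene Ldha had 3.31 and 1.87 at E13.5, against 6.79 and 6.85 at day 16, and the platelet phosphofructokinase gene Pfkp had -0.92 and -0.59 at E13.5, against 3.16 and 3.11 at day 16. All 4 were lower with each E13.5 array alone. The muscle forms Pfkm and Eno3 rose, Pfkm with 3.32 and 2.63 at E13.5, against 2.15 and 2.23 at day 16, and Eno3 with 2.98 and 2.93 at E13.5, against 1.89 and 1.87 at day 16. Pfkm did not pass with array 2 alone (adjusted p = 0.0527) or without day 16 array 1 (0.0677), nor with quantile normalization (0.0658).

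Oxidative phosphorylation genes rose at 21 and fell at 1 of 37 (median 0.61). With quantile normalization only 7 rose, 2 fell and the median was 0.26. That share of rises was no larger than the 3872 of 18876 that quantile normalization called higher over all genes, where the median was 0.09. Ndufv1, a flavoprotein subunit of complex I, had 6.39 and 6.62 at E13.5, against 4.92 and 4.91 at day 16, and rose by 1.59 ± 0.20. Cox7a2, a subunit of complex IV, had 5.39 and 5.82 at E13.5, against 3.95 and 3.94 at day 16. Ndufs1, the iron-sulfur subunit of complex I, had 5.44 and 5.45 at E13.5, against 4.33 and 4.35 at day 16. Cox7b2, a germline form of a complex IV subunit, was the member that fell, with -1.76 and -2.66 at E13.5, against 0.68 and 0.73 at day 16.

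Stress and immediate-early genes, which respond within minutes to signals and handling, fell at 20 and rose at 4 of 32 (median -2.05). Junb had 0.39 and 0.24 at E13.5, against 3.21 and 3.20 at day 16. Ccn1, a matricellular target of serum and stretch, had -3.25 and -0.90 at E13.5, against 3.17 and 3.15 at day 16. Klf6, a Krüppel-like factor, had 0.17 and 0.44 at E13.5, against 3.18 and 3.16 at day 16. The cochaperone Dnajb1 and the heat shock protein Hsph1 rose, Dnajb1 with 5.60 and 6.23 at E13.5, against 4.45 and 4.41 at day 16, and Hsph1 with 5.62 and 6.01 at E13.5, against 4.34 on both day 16 arrays. The labels name trypsin and collagenase IV for the cultures and no enzyme for the gonads, and the part of handling in this list was not tested.

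**Figure D4:**
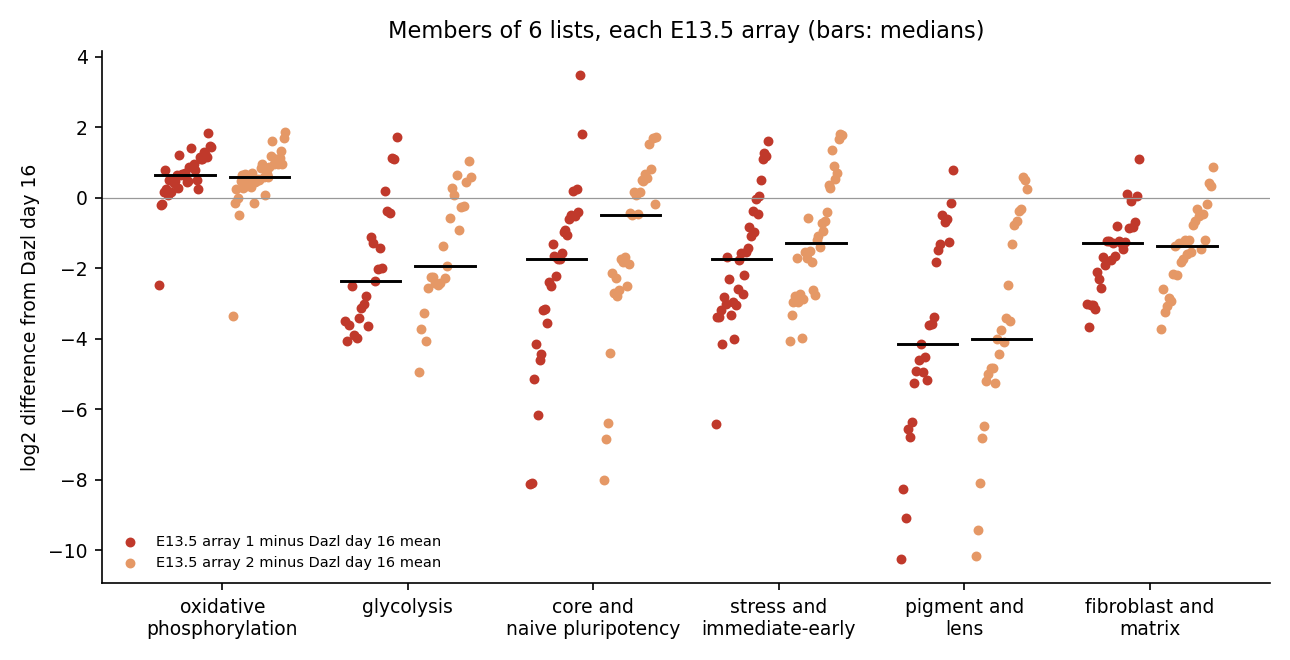
Difference of each E13.5 array from the mean of the 2 Dazl day 16 arrays, in log2, for each tested member of 6 lists (dots, E13.5 array 1 left of array 2), with bars at the medians. Both arrays place the median of oxidative phosphorylation genes above 0 and those of glycolysis, pluripotency, stress, pigment and lens, and fibroblast genes below 0.

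Apoptosis genes rose at 4 and fell at 9 of 27 (median -0.11). Bak1, a pore-forming death effector, had -3.07 and -3.10 at E13.5, against 0.71 on both day 16 arrays, and fell by 3.80 ± 0.15. Apaf1, the core of the apoptosome, had -1.07 and -1.06 at E13.5, against 1.78 and 1.74 at day 16. Mcl1, a survival protein of the same family as Bak1, also fell, with 2.67 and 3.24 at E13.5, against 5.05 on both day 16 arrays. Cell cycle genes rose at 5 and fell at 6 of 40 (median -0.08), against 7 and 13 with array 1 alone, 9 and 5 with array 2 alone, 2 and 8 with quantile normalization and 17 and 9 with normexp. Mki67, a proliferation marker, had 4.46 and 5.20 at E13.5, against 4.4 and 4.38 at day 16 (adjusted p = 0.17 in limma), though array 2 alone called it higher (0.81, adjusted p = 0.0117), and E2f1, an S-phase activator, rose by 1.64 ± 0.27.

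Signalling genes rose at 10 and fell at 8 of 37, against 10 and 14 with normexp. Over all genes 23.1% rose and 18.8% fell, and neither share was larger in the cell cycle list above or in the spermatogonial stem cell list. Spermatogonial stem cell genes rose at 5 and fell at 5 of 27, against 7 and 11 with normexp. These normexp falls were no larger a share than the 9081 of 18876 over all genes. Wnt3, a ligand with a role in germ cell specification, had -0.64 and 3.13 at E13.5, against -3.65 and -3.80 at day 16, and rose by 4.96 ± 0.92. Lhx1, a homeobox gene of the stem cell list, had -0.72 and 2.74 at E13.5, against -4.31 and -3.53 at day 16. Spermatid genes rose at 1 and fell at 1 of 13, against 1 and 10 with normexp, and 9 of the 22 on the array did not pass the filter on dim probes. Of 12 sex chromosome genes tested, 1 rose and 5 fell, against 1 and 8 with array 1 alone and 1 and 5 with array 2 alone.

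The genes that ranked first by size outside the lists were also described. Bnc1, a zinc-finger protein of germ cells and epithelia, was not well above background at day 16 and was at least 32.4-fold higher at E13.5, where it had -0.40 and 0.63. Khdc1a, a KH-domain gene of the oocyte and early embryo, was at least 44.5-fold higher. Among the falls, Aire, the autoimmune regulator, had -4.73 and -3.78 at E13.5, against 3.73 and 3.76 at day 16. Hspb8, a small heat shock protein, was not well above background at E13.5 and was at least 112-fold lower there. In all, 577 genes were called higher at E13.5 while not above background on either day 16 array, and 588 were called lower while not above background on either E13.5 array.

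**Figure D5:**
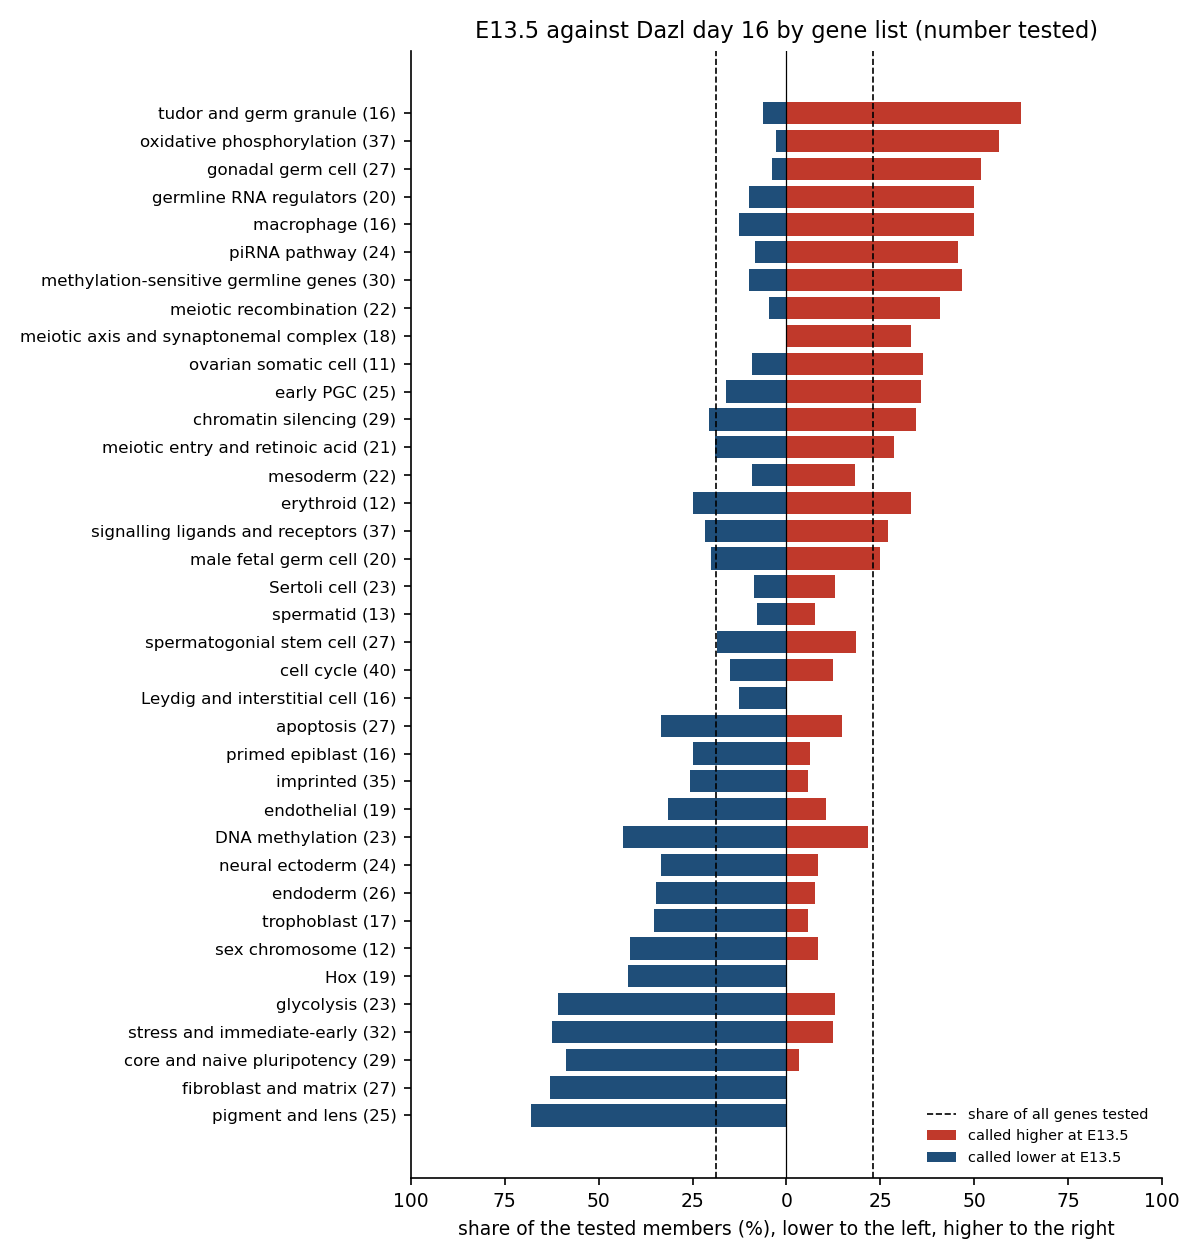
Share of the tested members of each list called higher (right, red) or lower (left, blue) at E13.5 against Dazl day 16, in percent, with the number tested in brackets. Dashed lines mark the shares over all genes tested, 23.1% higher and 18.8% lower, and the germ granule, oxidative phosphorylation and germ cell lists reach furthest to the right and the pigment and lens, fibroblast, pluripotency, stress and glycolysis lists furthest to the left.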

How the data were processed

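The 18 arrays were scanned in 1 colour and read, per the file headers, by Feature Extraction 9.1.3.1 from Agilent, and the deposited intensity of each spot is background-subtracted and not scaled between arrays. Here its log2 minus the array's 75th percentile was taken from the deposited files. Control spots and outlier flags were left out, and probes well above background on both arrays of at least 1 group were kept, 28114 probes for 18876 genes. The probe with the highest mean level stands for a gene with several. limma 3.58.1 in R 4.3.3 fitted all 9 groups together (residual degrees of freedom 9), and a gene was called where its p, adjusted by Benjamini-Hochberg over all genes tested, was under 0.05. On data simulated for this comparison over 18876 genes, 14 of 100 genes changed by a log2 of 1 were recovered, and 60 of 100 changed by 2. Of 18676 without change, 8 were called. The simulation gave each gene the same spread in all groups and left most genes unchanged. In the data the E13.5 arrays differ more than the day 16 arrays and many more genes were called, so these rates need not hold here. Tables and plots used Python 3.11.15. A bound of "at least" stands where the lower group was not well above background on either array. It sets the mean of the higher group against the mean of the lower group. Each level of the lower group was first raised, where it lay below, to the lowest well-above-background level of its array. No spot was saturated. The authors' deposited table of group means, an intensity over the array median, was an alternative, with a floor of 0.1, and so were other scalings, filters, probe summaries and fits and leaving out each array.

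The comparison, the 37 lists and the panel were chosen with earlier results of these data known. Some lists share members, so their counts are not separate results. Genes were named from a fixed panel, from the largest rises, falls, bounds and gaps between the E13.5 arrays, and from the members of the lists. Replicate numbers are shared by the groups, but the deviations of same-numbered arrays correlated at 0.0217, so they share only a number.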

Additional observations from a re-analysis of the deposited data

How the results depend on the processing

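Of the 7907 calls, 6985 were shared with the 7688 of quantile normalization, 6909 with the 7141 of median centring and 6427 with the 13765 of normexp, where 9081 were lower. Its offset of 50 is added to every signal, and it moved the count of genes with E13.5 arrays apart to 2157 at a log2 of 1 and 398 at 2. A fit of only the 4 arrays called 3163 genes, 1497 higher and 1666 lower, with fewer samples to estimate the spread. In that fit 27 of the 93 named genes called lost their call, and 1 other gained a call. The part of the wider gap between the E13.5 arrays in that drop was not tested. Of the 7907 calls, asking for a log2 difference of 1 left 2881 higher. Leaving out each array in turn gave 5257 to 8379 calls, with 2803 to 4535 higher and 2427 to 3844 lower. The fewest calls and rises came without day 16 array 1, and the fewest falls without day 16 array 2. The replicate block gave 8038 calls, 7764 of them shared, and Piwil4 then passed (adjusted p = 0.0471). The slide as a random block gave 8129. Of 124 named genes, these changed sign in a call, and the cause was not tested. Under normexp, C1qc was -1.14, Kit 0.58, Nanos2 -0.47 and Spo11 -0.11. With the mean over probes, Dazl was -0.14. Without E13.5 array 1 (that is, array 2 alone) the values ran against those without array 2: Lefty1 2.21 and -5.82, Lefty2 1.96 and -5.74, Mei1 -1.59 and 5.02, Nodal 0.68 and -4.06, Phlda2 -3.23 and 4.59, Pmaip1 1.73 and -7.19, Rec8 -2.27 and 2.04, Sct -4.21 and 3.31, Uba1y 1.16 and -10.72. Of 5561 called genes matched to the authors' deposited group means, 5560 had the same sign, but of 81 named genes with a value there, 26 differed in size by more than the standard error. Dim genes are limited by signal over background.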
